A study of Mus musculus with 12 samples.

Results

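This report describes 32 genes of macrophages and other leukocytes in mouse skeletal muscle, measured on 1-colour Agilent expression arrays. The genes were taken as those array probes, control spots left out, whose gene name equalled a listed member or an older name of it (Lyzs for Lyz2, Sfpi1 for Spi1). All 32 were present, on 52 of the 41174 probes and among 27597 gene names. To be tested, a gene needed a probe that every array of some group showed well above background, and 29 members were among the 18861 genes that met this. Spi1, Lcp2 and Csf3r did not meet it.

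Total RNA was profiled in 4 groups of 3 samples. The soleus, a leg muscle of slow oxidative fibres, and the EDL (extensor digitorum longus), of fast glycolytic fibres, came from male CD1 mice aged 3 months, and each sample joined the same muscle of the left and right leg of a single mouse. Myotubes were C2C12 cells after 96 h of differentiation. They had been loosened with trypsin and plated again so that mononucleated cells stuck down, and the cells still floating, described as mostly myotubes, were kept. Myoblasts were proliferating C2C12 cells at about 50% confluence. C2C12 is a mouse muscle cell line and holds no blood cells, so the cultures show what each probe gives without leukocytes, while the muscles were whole tissue with vessels, nerve and connective tissue. Whether the replicate cultures were grown separately is not given, so the p-values reflect the scatter of these samples alone, which may be technical.

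Adult muscle contains resident macrophages that sit between the fibres and around vessels, clear debris and take part in repair after injury. Their identity is set by the transcription factor PU.1, encoded by Spi1, and kept by signalling through the colony stimulating factor receptor Csf1r. Many of the members act in a chain: Fc receptors and complement C1q mark and take up targets, the phagocyte oxidase and lysosomal enzymes break them down, and MHC class II molecules, with the invariant chain Cd74 and the protease cathepsin S (Ctss), show the peptides to T cells. In whole tissue, fewer cells of a type and less RNA per cell cannot be told apart.

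A level here is the log2 of the background-corrected processed signal after each array was scaled to a common 75th percentile, so a difference of 1 is a 2-fold change. Levels of different probes are not compared with each other. Between 58.0% and 73.2% of spots were well above background per array and none was saturated. Before scaling, the 75th percentile signal was 457 to 614 units on the soleus arrays, 466 to 595 on the EDL arrays, 1018 to 1230 on the myotube arrays and 1048 to 1556 on the myoblast arrays. The arrays lay on 3 slides, each with 1 array of every group and the same replicate number, and slide 1 was scanned on another day. A group kept the same position on every slide, so array position and group cannot be told apart. A gene was called when limma's moderated test gave a Benjamini-Hochberg adjusted p under 0.05 over all genes and the fitted difference was at least 1 on the log2 scale.

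Most of the members were detected in muscle and fewer in the cultures, going by the 1 probe that represents each gene. Of the 32 members, 26 were well above background on all 6 muscle arrays, 5 (Cd53, Lcp2, Spi1, H2-Aa and Ncf1) on some of them and Csf3r on none. In the cultures, 15 members were above background on none of the 6 arrays, 8 on some and 9 on all. The 11 members seen on every muscle array and on no culture array were Ptprc, Laptm5, Cd52, Cd48, C1qa, C1qc, Fcgr1, Fcgr3, Tyrobp, Ctss and Cybb. Other probes changed this for a few: a second H2-Aa probe was above background on all 6 muscle arrays, and a second Fcgr3 probe on 1 myotube array. The 9 seen on all 12 arrays were Coro1a, Csf1r, Cd68, Cd14, Lyz2, C1qb, Fcer1g, Cd74 and Ncf4. The name leukocyte gene did not hold in these samples for every member. Cd68 and Cd14 were about as bright or brighter in the cultures than in muscle, and Ncf1 was brightest in myotubes. Cd53, a tetraspanin of blood cells, was above background on 1 of the 6 muscle arrays, against 3 of 3 myoblast arrays. These Cd53 counts are not on equal terms. The lowest scaled signal well above background was 3.85 to 4.96 on the muscle arrays, against 2.73 to 3.24 on the myoblast arrays.

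**Figure D1:**
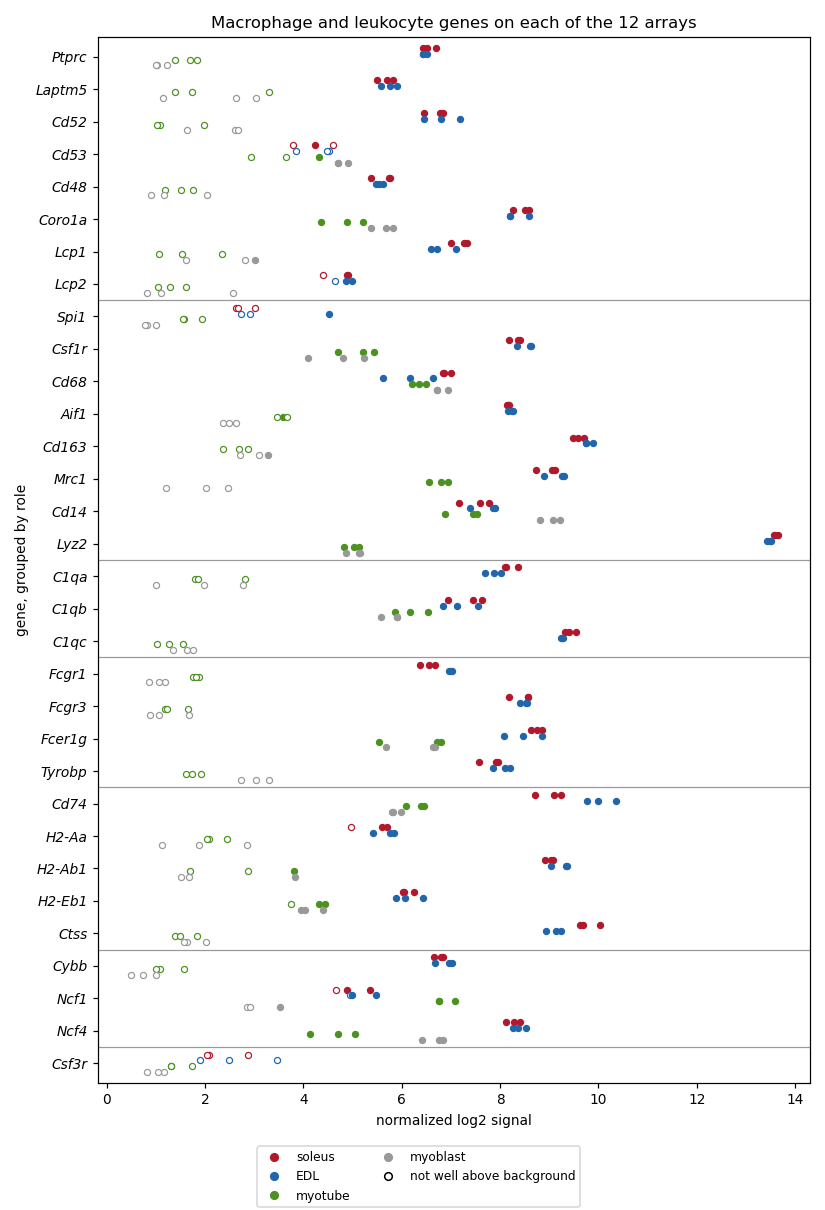
Log2 normalized level of each of the 32 members on the 12 arrays, grouped by role; open points were not well above background. Soleus and EDL points lie close together for most members and above the culture points, except for Cd68, Cd14, Cd53 and Ncf1.

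Few of these genes passed the test between soleus and EDL. Of the 29 members tested, none was called higher in soleus, against 5.03% of all genes, and 1, Cd74, was called lower, against 4.75% of all genes. Called in either direction were 3.45% of the members and 9.77% of all genes. Without the requirement on size, 4 members passed the adjusted p (Cd68 and Ctss above 0, Fcgr1 and Cd74 below 0), against 31.5% of all genes. With spike-in scaling none of them passed, and under normexp 3 did. The same 4 members were those with an unadjusted p under 0.05, as had 40.4% of all genes. The median difference, soleus minus EDL, was -0.07 over the 29 members and -0.04 over all genes.

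The intervals say how far these differences were bounded. For 20 of the 29 members the 95% interval of the difference lay wholly inside a 2-fold change either way, against 64.8% of all genes. The exceptions were Laptm5, Lcp1, Cd68, C1qa, Fcer1g, Cd74, H2-Aa, H2-Ab1 and Ctss, so for those a larger difference was not bounded out. This count was 28 of 29 under another background correction (normexp) and 3 of 29 when arrays were scaled on spike-in RNA. It was 26 of 29 with only soleus and EDL fitted, without the spread of the culture arrays. Among the 26 members above background on all muscle arrays, 23 had a fitted difference under 0.5 in size, and the other members of that set were Cd68, Cd74 and Ctss. The share of all genes under 0.5 was not computed, so this count does not set the members apart. The 6 arrays did not overlap between soleus and EDL for 8 of 29 members, against 44.7% of all genes. As a description of each library, the mean deviation of the 26 members from their own averages was -0.09, 0.03 and 0.05 on soleus arrays 1 to 3 and -0.13, 0.14 and -0.0007 on EDL arrays 1 to 3. The array on slide 1 was lowest in each muscle.

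**Figure D2:**
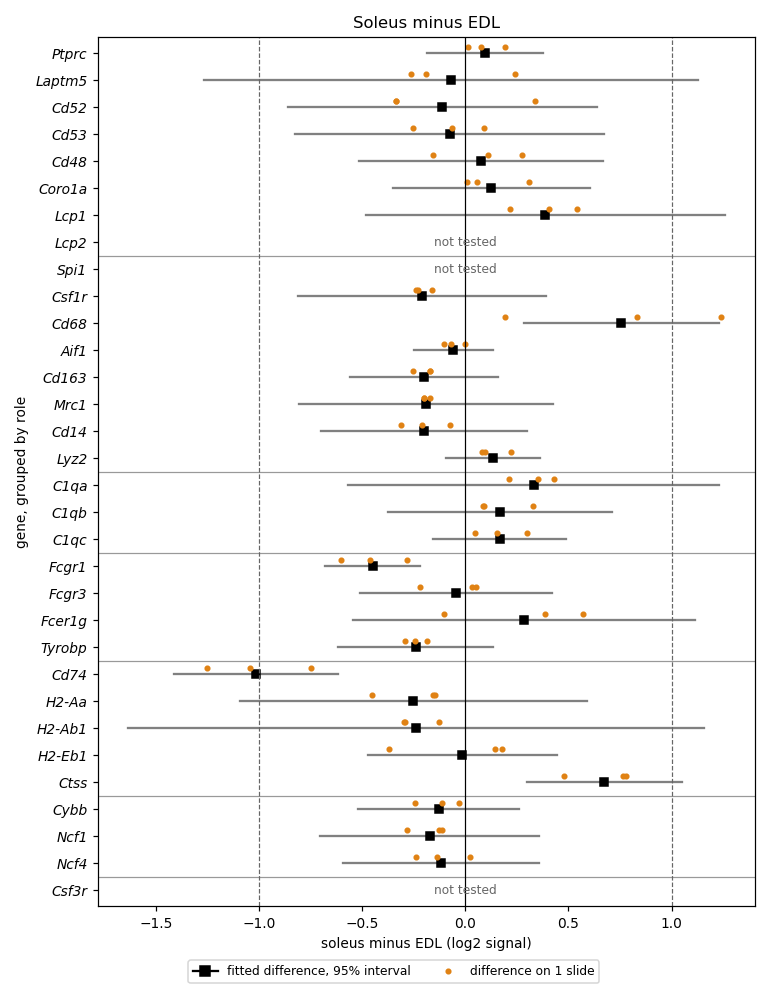
Fitted soleus minus EDL difference (log2) of each tested member with its 95% interval, the difference within each of the 3 slides in orange, and dashed lines at a 2-fold change either way. Cd74 at -1.01 is the one member past the line, and the points of 23 of the 26 members seen on all muscle arrays lie within 0.5 of 0.

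The pan-leukocyte genes did not pass the test in either direction. Ptprc, the CD45 phosphatase on all nucleated blood cells, had levels of 6.44, 6.51 and 6.70 in soleus, against 6.42, 6.43 and 6.51 in EDL. The ranges overlapped and the difference was 0.10 ± 0.13 (SE, n = 3 each). Its probe stayed below background in all 6 cultures, at 1.39 to 1.85 in myotubes and 1.01 to 1.23 in myoblasts. The differences of the other tested members of this group ran from -0.11 for Cd52, a small surface glycoprotein, to 0.39 for Lcp1, an actin bundler of blood cells. Coro1a, a coronin that binds actin in leukocytes, had a difference of 0.13 ± 0.21 (SE). Cd48, a surface ligand of lymphocyte receptors, stood at 0.08 ± 0.26 and Laptm5, a lysosomal membrane protein, at -0.07 ± 0.54. Cd53 entered the test through the myoblast arrays alone, and its value of -0.08 compares mostly background signal. Lcp2, an adaptor of immune receptor signalling, was above background on 2 of 3 arrays of each muscle, at 4.39 to 4.91 in soleus and 4.65 to 4.98 in EDL, and was not tested.

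Among the genes of macrophage identity and scavenging, Cd68 stood apart from the rest. Spi1 was above background on EDL array 3 only, with 2.64, 2.67 and 3.01 in soleus, against 2.72, 2.92 and 4.53 in EDL, and no fold is given. Csf1r, the receptor just named, differed by -0.21 ± 0.27 (SE). Aif1, a calcium-binding protein of macrophages also called IBA1, differed by -0.06 ± 0.09, the narrowest of the members. Cd163, the haemoglobin scavenger receptor, differed by -0.20 ± 0.16 and Mrc1, the mannose receptor, by -0.19 ± 0.27. The difference of Cd14, the lipopolysaccharide co-receptor, was -0.20 ± 0.22. None of these passed the test.

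Lyz2, the lysozyme of macrophages and neutrophils, is given by sample because its probe differed most between muscle and culture among members measured on both sides. It had 13.58, 13.65 and 13.60 in soleus, against 13.48, 13.43 and 13.51 in EDL. All soleus values lay above all EDL values, yet the difference was 0.13 ± 0.10 (SE), with a 95% interval of -0.10 to 0.36, and did not pass the test. Its probe lies at chr10:116681504-116681563 on the minus strand of mouse build mm8, the build in the array files.

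Cd68, a glycoprotein of late endosomes and lysosomes, was chosen for values by sample after they were seen. Its levels were 6.865, 6.832 and 6.997 in soleus, against 5.626, 6.638 and 6.164 in EDL, with the probe at chr11:69481007-69481066 on the minus strand. The EDL arrays were spread over a full unit and the soleus arrays were not. The difference was 0.76 ± 0.21 (SE), with a 95% interval of 0.28 to 1.23 and an adjusted p of 0.0211, short of the size needed for a call. It was 1.24, 0.19 and 0.83 on slides 1 to 3. The adjusted p was 0.0854 when only soleus and EDL were fitted. Without EDL replicate 2 the difference was 1.003, and without replicate 2 of every group 1.036, both large enough for a call. It was 0.497 without EDL replicate 1, 0.513 with an adjusted p of 0.0791 without replicate 1, and 0.716 with an adjusted p of 0.201 without replicate 3. The same probe read 6.20 to 6.49 in myotubes and 6.72 to 6.95 in myoblasts, so the soleus level was matched by cells that are not macrophages.

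The 3 chains of complement C1q, the recognition unit of the classical pathway and a product of tissue macrophages, had positive differences and none passed the test. C1qa had 8.12, 8.10 and 8.37 in soleus, against 7.69, 7.88 and 8.01 in EDL. The muscles did not overlap for C1qa, but its difference of 0.33 had an SE of 0.40 in the fit across all groups. C1qb differed by 0.17 ± 0.24 (SE) and C1qc by 0.17 ± 0.14, with a 95% interval of -0.15 to 0.49 for C1qc. The 3 probes lie close together on chromosome 4, as do the genes, at chr4:136168570-136168629 for C1qa, chr4:136152739-136152798 for C1qb and chr4:136161927-136161986 for C1qc, all on the minus strand.

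Of the Fc receptors and their adaptors, Fcgr1 was lower in soleus by less than 2-fold. Fcgr1, the high-affinity receptor for IgG, had 6.56, 6.38 and 6.67 in soleus, against 7.02, 6.98 and 6.95 in EDL. The groups did not overlap, and all 3 slides gave a negative difference. The fitted value was -0.45 ± 0.10 (SE), with a 95% interval of -0.68 to -0.22 and an adjusted p of 0.00798, so a 2-fold difference lay outside its interval. It was -0.18 with an adjusted p of 0.462 under normexp, and the adjusted p was 0.153 without replicate 2. A second Fcgr1 probe, which did not pass the filter, read 4.63, 5.14 and 5.08 in soleus, against 4.95, 5.61 and 4.92 in EDL. That probe was above background on 2 of 3 arrays of each muscle, its difference was -0.21, and the muscles overlapped. Fcgr3, a low-affinity IgG receptor, differed by -0.05 ± 0.21. The signalling chains that carry the immunoreceptor tyrosine-based activation motif (ITAM), Fcer1g and Tyrobp, differed by 0.28 ± 0.37 and -0.24 ± 0.17, and neither passed the test.

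The MHC class II group held the one called member. Cd74, the invariant chain that guides class II molecules to the endosome, had 8.72, 9.10 and 9.25 in soleus, against 9.76, 10.35 and 10.00 in EDL. All EDL values lay above all soleus values. Cd74 averaged 9.02 ± 0.27 in soleus and 10.03 ± 0.29 in EDL (SD, n = 3 each), a difference of -1.01 ± 0.18 (SE) with an adjusted p of 0.00166, or a 2.02-fold higher signal in EDL. Within slides 1 to 3 it was -1.04, -1.25 and -0.75.

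The call of Cd74 sat on the size threshold. The difference was -0.92 with an adjusted p of 0.000452 under normexp, and -1.22 with an adjusted p of 0.163 with spike-in scaling, and neither was a call. Leaving out 1 sample or 1 replicate number ended it in 4 of 9 cases, with -0.86 without EDL replicate 2, -0.86 without soleus replicate 1, -0.9994 without replicate 1 and -0.90 without replicate 2. Its adjusted p stayed under 0.05 in those 9 fits, with differences of -1.15 to -0.86.

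Ctss, the cathepsin that trims the invariant chain, ran the other way and was given by sample after its values were seen. It had 10.02, 9.70 and 9.62 in soleus, against 9.24, 8.93 and 9.14 in EDL, with the probe at chr3:95641644-95641703 on the plus strand. The groups did not overlap. Ctss averaged 9.78 ± 0.21 in soleus and 9.10 ± 0.16 in EDL (SD, n = 3 each), a difference of 0.67 ± 0.17 (SE) with a 95% interval of 0.30 to 1.05 and an adjusted p of 0.012, under the size for a call. The adjusted p was 0.0805 without replicate 2 and 0.0885 without replicate 3. The class II chains themselves did not pass the test. H2-Aa, the alpha chain of I-A, differed by -0.25 ± 0.38 (SE), its partner H2-Ab1 by -0.24 ± 0.62 and H2-Eb1, the beta chain of I-E, by -0.01 ± 0.20. The tested H2-Aa probe was above background on 2 of 3 soleus arrays and entered through the EDL arrays alone. The wide errors of H2-Ab1 and Laptm5 come with culture arrays near background, whose spread the fit shares: with only soleus and EDL fitted, the median SE of the members was 0.147, against 0.213 with all groups.

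Promoters of members are shown from 250 bases before to 50 after the annotated start, as RefSeq gives them on build GRCm38.p6. A promoter was found for 23 of the 32 members, 27 promoters in all. They were searched on both strands for the Y box CTGATTGG, the class II promoter element bound by NF-Y, and for GAGGAA, the purine core that PU.1 recognises. The Y box stood in 2 of the 27 promoters (7.41%), those of H2-Aa and H2-Eb1, against 4.1% of 32851 promoters of all genes. GAGGAA stood in 15 of the 27 (55.6%), in 14 genes including Ptprc, Cd68, C1qb, C1qc, Fcgr1, Ctss and Cybb, against 28.3% of all promoters. A match describes the letters and shows no binding. The class II pair is shown for the Y box they share, and Ctss and Cybb as members with GAGGAA that were detected on every muscle array and on no culture array, with matches in capitals. The regions are chr17:34287774-34288073 on the minus strand for H2-Aa, chr17:34305617-34305916 on the plus strand for H2-Eb1, chr3:95526536-95526835 on the plus strand for Ctss and chrX:9469275-9469574 on the minus strand for Cybb.
H2-Aa promoter: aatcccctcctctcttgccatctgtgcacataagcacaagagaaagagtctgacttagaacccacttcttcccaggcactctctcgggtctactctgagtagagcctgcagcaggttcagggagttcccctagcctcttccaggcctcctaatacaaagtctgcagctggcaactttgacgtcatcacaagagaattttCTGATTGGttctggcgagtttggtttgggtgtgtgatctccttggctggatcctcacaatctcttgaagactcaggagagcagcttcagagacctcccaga
H2-Eb1 promoter: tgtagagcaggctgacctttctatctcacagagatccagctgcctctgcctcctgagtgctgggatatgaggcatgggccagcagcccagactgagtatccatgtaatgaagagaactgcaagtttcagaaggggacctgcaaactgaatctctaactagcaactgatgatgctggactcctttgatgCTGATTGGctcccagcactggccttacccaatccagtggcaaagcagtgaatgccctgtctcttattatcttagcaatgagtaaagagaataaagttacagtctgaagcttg
Ctss promoter: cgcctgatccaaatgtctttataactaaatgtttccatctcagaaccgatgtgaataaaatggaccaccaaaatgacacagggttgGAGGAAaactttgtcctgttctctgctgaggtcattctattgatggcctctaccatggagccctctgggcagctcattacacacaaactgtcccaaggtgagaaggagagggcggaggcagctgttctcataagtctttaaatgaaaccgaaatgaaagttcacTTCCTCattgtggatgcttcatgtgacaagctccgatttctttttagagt
Cybb promoter: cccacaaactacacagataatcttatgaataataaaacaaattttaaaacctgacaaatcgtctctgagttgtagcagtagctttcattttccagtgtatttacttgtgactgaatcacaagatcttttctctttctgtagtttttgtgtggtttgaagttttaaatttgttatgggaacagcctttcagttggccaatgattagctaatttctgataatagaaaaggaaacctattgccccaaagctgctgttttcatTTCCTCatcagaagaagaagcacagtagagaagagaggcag
Counted from the annotated start, the Y box begins at -51 in H2-Aa and at -62 in H2-Eb1. In Ctss GAGGAA begins at -164 and its reverse complement TTCCTC at 0, and in Cybb TTCCTC begins at 9.

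The subunits of the phagocyte NADPH oxidase, the enzyme that makes superoxide in the phagosome, did not pass the test between the muscles. Cybb, the catalytic membrane subunit gp91phox, had 6.65, 6.79 and 6.85 in soleus, against 6.68, 7.03 and 6.96 in EDL. The ranges overlapped and the difference was -0.13 ± 0.17 (SE). Ncf1, the cytosolic organiser p47phox, was above background on 2 of 3 arrays of each muscle and differed by -0.17 ± 0.24. Ncf4, the cytosolic subunit p40phox, differed by -0.12 ± 0.21. Csf3r, the granulocyte colony stimulating factor receptor, was below background everywhere, with 2.87, 2.08 and 2.05 in soleus, against 3.47, 1.90 and 2.49 in EDL.

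For 10 members more than 1 probe passed the filter, and in 5 of them (Aif1, Csf1r, Fcgr3, Laptm5 and Ncf1) probes had opposite signs between soleus and EDL. The second Laptm5 probe differed by 0.02 between soleus and EDL, and the second H2-Aa probe by -0.23, with 6.33, 6.16 and 6.59 in soleus, against 6.55, 6.63 and 6.58 in EDL. The second Lyz2 probe read 5.68, 6.29 and 6.41 in soleus, against 5.52, 5.79 and 5.81 in EDL, a difference of 0.42, and was below background in all cultures. A culture signal as far below muscle as that on the brighter Lyz2 probe would lie under background on the dimmer one. The dimmer probe therefore cannot say whether that low culture signal holds. The probes of Ncf1 were furthest apart of those 5: its second probe read 4.25, 4.54 and 4.89 in soleus, against 3.48, 4.44 and 3.93 in EDL, a difference of 0.61 where the first gave -0.17. Both Ncf1 probes were below background on some muscle arrays. For H2-Ab1 a second probe was above background on all 3 myoblast arrays, whereas the probe tested was so on 1.

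Against purified myotubes the members were mostly far higher in muscle. In soleus 25 of the 29 tested members were called higher, against 25.8% of all genes, and 1 was called lower, against 19.5%, which makes 89.7% of the members and 45.3% of all genes called either way. In EDL 24 were called higher, against 27.9% of all genes, and 1 lower, against 19.9%, or 86.2% of the members and 47.7% of all genes either way. These comparisons share the myotube samples. The members had been listed as genes of cells that the cultures lack, so these counts describe that choice and are not an independent finding. In each muscle, 14 of the members called higher were below background on every myotube array. They entered the test through the muscle arrays alone, so a difference was built into their entry. The median difference over the tested members was 4.13 for soleus minus myotube and 4.06 for EDL minus myotube, or 3.20 and 3.41 with members below background set to their bounds, against 0.14 and 0.21 over all genes.

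The members measured on both sides gave the size of that difference. Lyz2 read 5.13, 4.82 and 5.04 in myotubes, and the difference was 8.61 ± 0.10 (SE) for soleus and 8.48 for EDL. Aif1, above background on 1 myotube array, differed by 4.60 in soleus and 4.65 in EDL. Coro1a differed by 3.64 and 3.51, Csf1r by 3.20 and 3.41, and Ncf4 by 3.64 and 3.76, each soleus before EDL. In other settings the differences fell as low as 2.53 and 2.54 for Aif1 and 1.72 and 1.86 for Csf1r. Cd74 differed by 2.71 in soleus and 3.73 in EDL. H2-Ab1, above background on 1 myotube array, differed by 6.22 and 6.46, and H2-Eb1 by 1.95 and 1.97. Fcer1g differed by 2.40 and 2.11. All of these were called in both muscles, but with spike-in scaling Fcer1g and H2-Eb1 were called in neither.

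For members below background on every myotube array only a lower bound is given, the muscle mean set against the lowest signal detectable in myotubes. Ctss was at least 79.1-fold higher in soleus and at least 49.5-fold higher in EDL. Cd163 was at least 69.5-fold higher in soleus and 79.8-fold in EDL, and C1qc at least 61.9-fold and 55.1-fold. Fcgr3 was at least 31.2-fold and 32.2-fold higher, C1qa at least 26.4-fold and 21.0-fold, and Tyrobp at least 20.2-fold and 23.9-fold. The other 8 called members with bounds (Lcp1, Cybb, Cd52, Ptprc, Fcgr1, Laptm5, Cd48 and H2-Aa) lay between at least 3.86-fold for H2-Aa and at least 13.2-fold for Lcp1 in soleus, and between at least 4.20-fold for Cd48 and at least 11.4-fold for Fcgr1 in EDL. A small bound reflects a dim muscle signal as much as a small change. All these bounds hold only for the scaling and background correction of the reported fit. Over 9 other settings the fitted soleus difference fell as low as 4.08 for Ctss, 3.94 for Cd163 and 4.06 for C1qc. Their bounds on the same log2 scale were 6.31, 6.12 and 5.95.

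**Figure D3:**
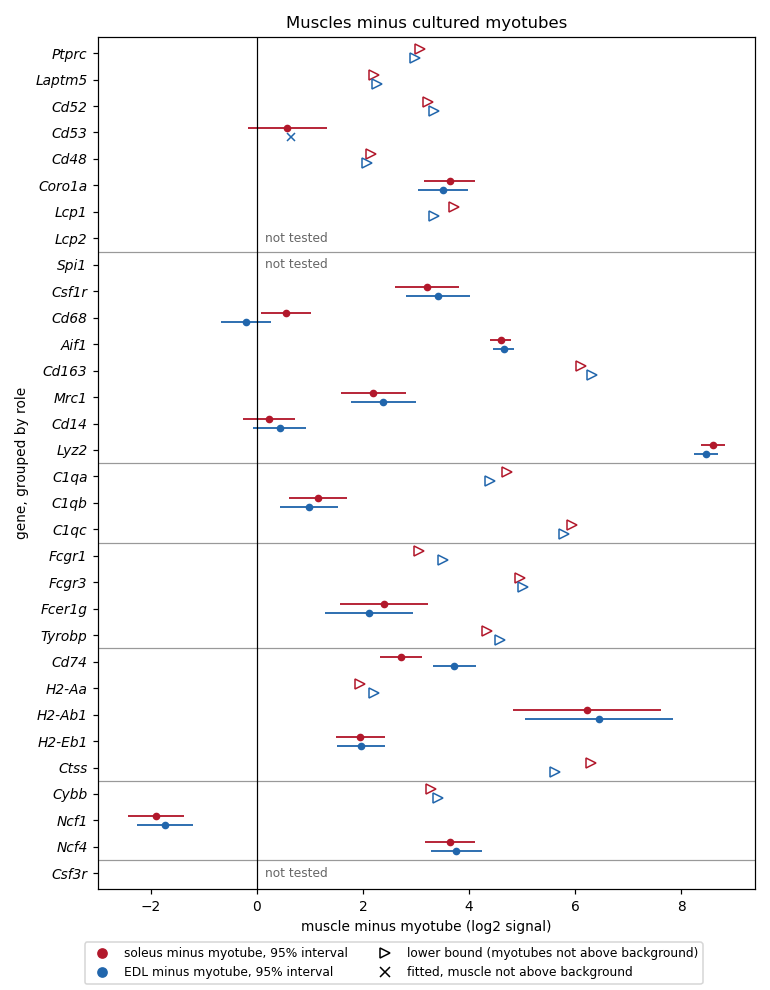
Difference from myotubes (log2) of each member in soleus and in EDL; triangles are lower bounds for members below background in all myotubes, and crosses mark members not above background in that muscle. Lyz2 lies at 8.61 and 8.48, while Cd68, Cd14 and Cd53 lie near 0 and Ncf1 below it.

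A few members did not follow this pattern. Cd14 read 7.17, 7.58 and 7.78 in soleus and 7.38, 7.89 and 7.85 in EDL, against 6.88, 7.45 and 7.52 in myotubes, and its differences of 0.23 and 0.43 were not called. Cd68 differed by 0.55 in soleus, with an adjusted p of 0.0379, and by -0.20 in EDL, and was called in neither. Cd53 differed by 0.57 and 0.65 and was not called. C1qb was called in soleus at 1.15 and not in EDL at 0.98, a difference between the muscles that itself did not pass the test. The soleus call of C1qb was lost with the deposited value table, quantile normalization, spike-in scaling, without replicate 3 and without myotube replicate 1.

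Ncf1 was the member called lower in muscle. It entered the test through the myotube arrays alone, where it is high, so a difference was built into its entry. When detection on every array of both groups was required, Ncf1 was left out of the test, and no other member was called lower. Ncf1 had 4.66, 5.35 and 4.88 in soleus and 4.94, 5.47 and 4.99 in EDL, against 7.08, 6.75 and 6.76 in myotubes, at chr5:134506156-134506215 on the minus strand. All myotube values lay above all muscle values. The difference was -1.90 ± 0.24 (SE) for soleus, with an adjusted p of 3.67e-05, and -1.73 for EDL, with an adjusted p of 7.31e-05. Under normexp the differences were -0.42 and -0.45 and were not called. The second Ncf1 probe, at 7.84, 7.72 and 7.43 in myotubes, also lay above every muscle value.

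The cultures themselves differed in a few members. Between myotubes and myoblasts, 3 of 29 tested members were called higher, against 18.9% of all genes, and 4 lower, against 16.5%. Either way 24.1% of the members and 35.4% of all genes were called. The median difference was 0.03 over the members and 0.04 over all genes. Mrc1 had 6.80, 6.95 and 6.56 in myotubes, against 1.21, 2.01 and 2.46 in myoblasts, where it was below background on all 3 arrays. In the reported fit it was at least 13.8-fold higher in myotubes, with an adjusted p of 1.01e-07. The fitted Mrc1 difference fell as low as 1.77 in other settings, against a log2 bound of 3.78. The mannose receptor has also been described in cultured mouse muscle cells. In muscle it stood 2.19 above myotubes in soleus and 2.38 in EDL. The soleus call of Mrc1 was lost with spike-in scaling, at 0.98.

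Ncf1 rose in myotubes as well. It had 7.08, 6.75 and 6.76 in myotubes, against 2.85, 2.92 and 3.53 in myoblasts, with 1 myoblast array above background. The groups did not overlap, and the difference was 3.76 ± 0.24 (SE) with an adjusted p of 2.39e-07. Since Ncf1 entered the test through the myotube arrays alone, a difference was built into this comparison too. The second probe read 1.00, 0.75 and 2.00 in myoblasts, below background. Aif1 was called at least 1.497-fold higher, from 1 myotube array above background, and the call was lost in 5 of the 9 other settings that tested it.

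Cd14 and Ncf4 fell in myotubes and kept their calls in all 10 other settings. Cd14 had 6.88, 7.45 and 7.52 in myotubes, against 8.82, 9.08 and 9.22 in myoblasts, a difference of -1.76 ± 0.22 (SE) with an adjusted p of 5.31e-05. Ncf4 had 4.12, 4.71 and 5.04 in myotubes, against 6.41, 6.76 and 6.83 in myoblasts, a difference of -2.04 ± 0.21 with an adjusted p of 1.11e-05. Neither gene overlapped between the groups. Cd53 was called lower at -1.14, with 1 myotube array above background, a call lost under normexp, without replicate 1 or replicate 2 and without myotube replicate 1 (range -1.51 to -0.79). Cd53 entered the test through the myoblast arrays alone, so a lower value in myotubes was built into its entry. Tyrobp passed the call rule with both groups below background, so no value is given for it, and it did not pass under normexp. With spike-in scaling 2 members were called higher and 5 lower (Cd14, Cd52, Cd53, Ncf4 and Tyrobp), where 6383 of 18861 genes were called either way. That scaling moved the median of all genes by -0.36.

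Genes related to the members were taken from lists of pathways and cell types. The muscle labels were checked first on fibre genes. Of 8 slow fibre genes 7 were called higher in soleus, Myh7 by 3.32, and of 8 fast fibre genes 4 were called lower, Pvalb by -4.77, Actn3 by -4.75 and Atp2a1 by -1.74. Of 24 further macrophage genes, 20 were above background on all 6 muscle arrays. Between soleus and EDL 1 of 21 tested was called higher and 2 lower, where 9.77% of all genes were called either way. The list's median was -0.06, against -0.04 for all genes. Lyve1, a hyaluronan receptor of lymphatic vessels and of a subset of resident macrophages, read 9.29, 9.24 and 9.19 in soleus, against 8.28, 8.12 and 8.13 in EDL. The muscles did not overlap, and the difference was 1.06 ± 0.33 (SE) with an adjusted p of 0.0352, a call that was kept in 1 of the 9 fits that left out samples, over which the difference was 1.03 to 1.11.

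Maf, a transcription factor, was called lower in soleus, by -1.44 ± 0.44 (SE) with an adjusted p of 0.0321. Maf read 11.96 to 13.31 in soleus, against 11.66 to 12.90 in the cultures, and these ranges overlapped. The call was kept in 7 of 10 other settings. Over the 9 fits that left out samples Maf was -1.83 to -1.15 and called in 2. Adgre1, which encodes the F4/80 antigen of mouse macrophages, differed by -0.06 ± 0.36.

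**Figure D4:**
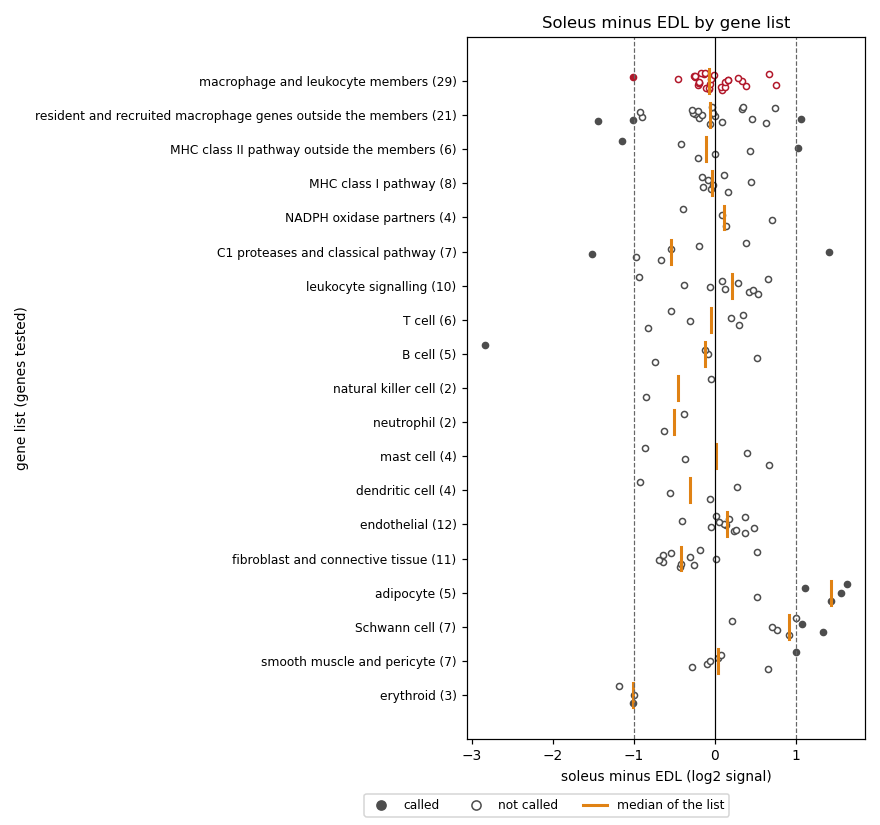
Soleus minus EDL difference (log2) of every tested gene in the members (top) and in the other gene lists; filled points were called and orange bars are medians. The members' median is -0.07, and the adipocyte list (1.44) and the Schwann cell list (0.91) lie to the right of it.

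The lists around the members' pathways were short, so their counts of calls say little beside the 9.77% of all genes called. Of 6 tested MHC class II genes outside the members, 1 was called higher in soleus and 1 lower. Lgmn, an endosomal protease also bright in the cultures, was called higher in soleus by 1.03, with an adjusted p of 1.99e-05. Rfx5, a factor that binds class II promoters, was called lower by -1.15, with an adjusted p of 0.0219, reached -0.35 under normexp and was called in 4 of the 9 fits that left out samples. Lgmn was called in 6 of those 9, at 0.98 to 1.09. H2-DMa, the peptide exchange factor, differed by -0.21 and was not called. None of 8 MHC class I genes was called by limma and none had an unadjusted p under 0.05, with B2m at 0.16. None of the 4 partners of the NADPH oxidase was called, with 2 at an unadjusted p under 0.05 and Cyba at 0.14. None of 10 leukocyte signalling genes was called, with 5 at an unadjusted p under 0.05 and Syk at 0.53, where 40.4% of all genes had such a p.

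Complement outside C1q differed in both directions. C3, the central component, had 10.98, 10.98 and 11.03 in soleus, against 12.48, 12.53 and 12.54 in EDL. The muscles were far apart, and the difference was -1.52 ± 0.29 (SE) with an adjusted p of 0.00271. The call of C3 was lost without replicate 2, over a range of -1.536 to -1.502. C4b was called higher in soleus by 1.41, with an adjusted p of 8.85e-05, and in all 9 fits that left out samples but not under normexp, at 0.91, and C1ra, a C1 protease, differed by -0.66 and was not called for size.

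Markers of other leukocytes were detected in part. Above background on all 6 muscle arrays were 5 of 10 T cell genes on the array, 4 of 7 B cell, 0 of 6 natural killer, 1 of 9 neutrophil, 4 of 7 mast cell and 2 of 7 dendritic cell genes. None of the tested T cell, natural killer, neutrophil, mast cell or dendritic cell genes was called between the muscles, at 6, 2, 2, 4 and 4 genes tested, with 1, 1, 0, 0 and 1 at an unadjusted p under 0.05. Of all genes 9.77% were called and 40.4% had such a p, so counts this small say little. Of 5 tested B cell genes 1, Ighm, was called lower, by -2.83, and its probe was brighter in myotubes than in either muscle. On no muscle array above background were Cd3d and Lck of T cells, Pax5 of B cells, Gzma, Gzmb and Prf1 of killer cells, S100a8, Elane, Camp and Retnlg of neutrophils, Ms4a2 of mast cells, and Cd209a, Ccr7 and Clec9a of dendritic cells.

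Several lists for other cells of the tissue held calls between the muscles, where 9.77% of all genes were called either way. In lists this short, 1 call or none says little beside that share. Of 5 tested adipocyte genes 4 were called higher in soleus, with a median of 1.44, among them Cidec at 1.63, Cfd at 1.56 and Adipoq at 1.44, while Fabp4 at 0.52 was not called. The mean level of the list was 11.13 to 11.28 on soleus arrays and 9.80 to 10.03 on EDL arrays. Of 7 Schwann cell genes 2 were called higher, Mbp at 1.34 and Pmp22 at 1.08, and the list averaged 10.45 to 10.59 in soleus and 9.50 to 9.73 in EDL. Of 3 erythroid genes 1, Hba-a1, was called lower at -1.01, and the list averaged 9.11 to 9.76 in soleus and 10.24 to 10.77 in EDL. None of 12 endothelial or 11 fibroblast genes was called, with 2 and 7 at an unadjusted p under 0.05, against 40.4% of all genes, and medians of 0.16 and -0.42. Cspg4, the 1 called gene of 7 in the smooth muscle and pericyte list, was at 1.01. Adipoq, Cfd, Mbp and Pmp22 kept their calls in all 9 fits that left out samples, Cspg4 in 5, Hba-a1 in 4 and Cidec in 1. With spike-in scaling Adipoq, Cfd, Cidec, Mbp, Pmp22, C3, C4b, Lgmn, Lyve1, Maf, Cspg4 and Hba-a1 were not called. The part of these cells in the values of Cd74, Cd68, Ctss and Fcgr1 was not tested.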

How the data were processed

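Arrays from 12 samples were read from the deposited scanner files, and the intensity values used are Feature Extraction's processed signals, background-subtracted and detrended within each array by Agilent Feature Extraction 10.5.1.1 per the file headers, not normalized between arrays. The deposited value table, also linear intensity and normalized by the authors in a way not given in the sources used here, was an alternative: its correlation with the scanner values (log2) was at least 0.9976 on every array. Non-control spots (43379) were kept except 68 to 140 outlier spots per array, log2 values were scaled to each array's 75th percentile, spots of a probe were averaged, and a gene took its brightest kept probe (28607 probes, 18861 genes). Probe names came from the array for members, otherwise from RefSeq tables by accession (24329 probes), symbol (6295) or synonym (2426), with the array's name for 8072. Groups were compared in 1 fit of all 12 arrays with limma 3.58.1 in R 4.3.3 (two-sided, 8 residual and 1.76 prior degrees of freedom), tested on simulated data.

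Replicate numbers mark the slide. Same-numbered soleus and EDL samples deviated together (correlations 0.66, 0.44 and 0.47), and whether they came from the same mouse is not given. Same-numbered pairs that share a slide and no mouse also did. These were soleus with myotube (0.51, 0.36 and 0.39), EDL with myotube (0.46, 0.31 and 0.32) and myotube with myoblast (0.60, 0.38 and 0.48). The alternatives were normexp, quantile and spike-in scaling, filters, probe rules, fitted groups, the replicate block and leaving out samples. For normexp, 0 to 25 spots per array more than 10 units under their local background were left out, a choice made after seeing that they broke its fit, as was the choice of probes on muscle arrays. The members and lists were chosen with earlier results of these data known. All members are named, with values by sample for those called between the muscles and the first of each role. Of other lists up to 3 called genes with the largest differences and the first not called are named. Some genes of these lists are not reported here. Values by sample beyond this, and further genes named, were chosen after they were seen.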

Additional observations from a re-analysis of the deposited data

How the results depend on the processing

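Of the 29 members, 1 was called between soleus and EDL in the reported fit and in 8 of 10 other settings, and 0 under normexp and under spike-in scaling. Leaving out samples gave 0 to 1: Cd74 in 5 of 9 fits, none without replicate 1 or soleus replicate 1, and Cd68 in place of Cd74 without replicate 2 or EDL replicate 2. Against myotubes, 26 members were called for soleus and 25 for EDL. A filter asking for detection in both groups left 10 members to test, with 8 called for soleus and 7 for EDL. Under it 6058 of 14528 genes were called for soleus and 6356 of 14539 for EDL. Leaving out samples gave 25 to 26 members for either. Between the cultures 7 members were called, 4 under normexp, 2 of 9 tested under the stricter filter, and 6 to 9 with samples left out. The counts over all genes were 6682 of 18861, 4927 of 18861 under normexp and 5165 of 15529 under the stricter filter. The replicate block changed no count of members called (Cd74 -1.01, adjusted p 0.0029). Differences between soleus and EDL that turned sign were all uncalled: with spike-in scaling Ptprc -0.11, Cd48 -0.13, Coro1a -0.078, Lyz2 -0.0725, C1qb -0.0365 and C1qc -0.038; under normexp Laptm5 0.036, Cd53 0.039 and Ncf1 0.028; with probes chosen on muscle Laptm5 0.016; with the deposited values Cd53 0.037; with quantile normalization Cd53 0.024; with the mean over probes Aif1 0.075 and Ncf1 0.22. Leaving out samples turned the sign within -0.23 to 0.026 for Laptm5, -0.34 to 0.075 for Cd52, -0.29 to 0.13 for Cd53, -0.024 to 0.20 for Cd48, -0.11 to 0.085 for Fcgr3 and -0.14 to 0.16 for H2-Eb1. Of all genes, 1843 were called between the muscles, 1072 under normexp and 895 under spike-in scaling. Spike-in scaling moved the median of all genes by -0.20 for soleus minus EDL, -1.21 for soleus minus myotube and -1.01 for EDL minus myotube, and normexp by 0.25 and 0.21 for the comparisons with myotubes. With spike-in scaling 21 members were called higher and 1 lower in soleus than in myotubes, and 22 higher and 2 lower in EDL. Under that scaling 11476 of 18861 genes were called either way for soleus and 10433 of 18861 for EDL. The causes were not tested. Members near background carry only bounds, and 3 arrays per group limit the precision.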

Other observations

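A few immune genes outside the members stood apart, and were chosen here after their values were seen. Irf8, a transcription factor of macrophages and dendritic cells, read 8.58, 8.51 and 8.66 in soleus, against 9.46, 9.51 and 9.56 in EDL, and was below background in all cultures. The muscles did not overlap, and the difference was -0.93 ± 0.14 (SE) with an adjusted p of 0.000704 from limma, just short of the size for a call. Trem2, a lipid receptor of macrophages that signals through Tyrobp, read 7.71, 7.70 and 7.80 in soleus, against 6.86, 6.98 and 7.14 in EDL, a difference of 0.74 ± 0.16 with an adjusted p of 0.00501. With the mean over its probes the difference of Trem2 was 0.13, so it rests on the probe chosen.

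The probe named Ighm, the heavy chain of IgM and a marker of B cells, read 9.67, 9.97 and 9.97 in soleus, against 12.61, 12.70 and 12.80 in EDL. It read 13.90, 14.11 and 14.09 in myotubes, against 4.89, 5.29 and 5.52 in myoblasts, so a culture without B cells gave the highest signal. Between the muscles it was called lower in soleus by -2.83 ± 0.16 (SE), with an adjusted p of 6.52e-07, and in all 10 other settings. The 4 other tested B cell genes were not called between the muscles.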
